A study of Caenorhabditis elegans with 4 samples.

Results

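The genes described here encode the Sm and LSm proteins and 3 further groups of splicing factors of the nematode Caenorhabditis elegans. They were chosen by symbol: every row of the count table whose gene ID carries a name beginning with snr, lsm, rsp, prp or uaf and a number. This gave 37 genes of 20182 in the table, namely 7 snr, 7 lsm, 8 rsp, 13 prp and 2 uaf genes, and all 37 passed the filter on low counts. Total RNA of whole young adults was sequenced in 4 libraries, 2 from a strain mutant for both cey-1 (allele rrr12) and cey-4 (allele ok858), titled c14 by the submitters, and 2 from N2, the standard wild-type strain. The mutated genes encode Y-box proteins, cold shock domain proteins that bind mRNA. Transcripts of cey-4 were counted 338 and 280 times in the c14 libraries, against 23072 and 23781 times in the N2 libraries, and those of cey-1 723 and 609 times in c14, against 4218 and 4042 in N2.

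In the nucleus, small nuclear RNAs (snRNAs) and their proteins assemble on each intron into the spliceosome, which cuts the intron out and joins the exons. A ring of Sm proteins, encoded by the snr genes, sits on most spliceosomal snRNAs and, in nematodes, also on the spliced leader RNA that is trans-spliced onto the start of many mRNAs. A related LSm ring binds the end of U6 snRNA in the nucleus, and a variant of it that holds LSm1 takes part in mRNA decay in the cytoplasm. The rsp genes encode SR proteins, which bind exons and help to select splice sites, the uaf genes encode the U2AF subunits, which recognise the end of the intron, and the prp genes encode components of the snRNP particles and of the complexes that drive the splicing reaction.

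Transcripts of Sm and LSm genes were lower in c14 than in N2 in part, and no SR, U2AF or prp gene passed the test. Of the 7 Sm genes 4 fell (snr-1, snr-4, snr-5 and snr-6), and of the 7 LSm genes 2 fell (lsm-3 and lsm-8), with c14 levels between 57.2% and 70.6% of the N2 level. No gene of the 37 was called higher. Genes were called at an adjusted p below 0.05 (Benjamini-Hochberg) in edgeR's quasi-likelihood test, fitted over all 13944 genes that passed the filter. It called 26.4% of all tested genes, 13.3% lower and 13.1% higher, so 6 of 37 (16.2%) is close to the share among all genes. The 6 calls fell among the 14 Sm and LSm genes (42.9%), with 0 among the 23 other genes. Among those 23, 3 had an unadjusted p under 0.05 (rsp-1, rsp-6 and prp-6), and DESeq2 and limma also called 0. In 19 of the 37 genes (51.4%) both c14 libraries lay below both N2 libraries, against 33.5% of all tested genes. In 4 both lay above, against 30.6%. Of the 19, 12 were among the 14 Sm and LSm genes and 7 among the 23 others. Among all tested genes with exons of up to 1000 bases, the share with both c14 libraries below was 47.4%.

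Apart from that of lsm-3, these calls depend on 1 library, as do many calls over all genes. Without c14 replicate 2, which leaves a lone c14 library, calls were lost both among the 6 and over all tested genes. The log2 fold change of lsm-3 was then -0.62. In that fit the others had log2 fold changes of -0.32 (snr-1), -0.43 (snr-4), -0.37 (snr-5), -0.29 (snr-6) and -0.47 (lsm-8). Without c14 replicate 1, which also leaves a lone c14 library, the 6 values ran from -0.99 (lsm-3) to -0.54 (snr-4). Without N2 replicate 1, which leaves a lone N2 library assumed to vary like the c14 pair, more members and more of all tested genes were called in each direction. No label describes the replicates as separate cultures, so the p-values rest on a spread between libraries that may be technical. Whole animals were sequenced in bulk, where fewer cells of a type and less RNA per cell cannot be told apart.

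**Figure D1:**
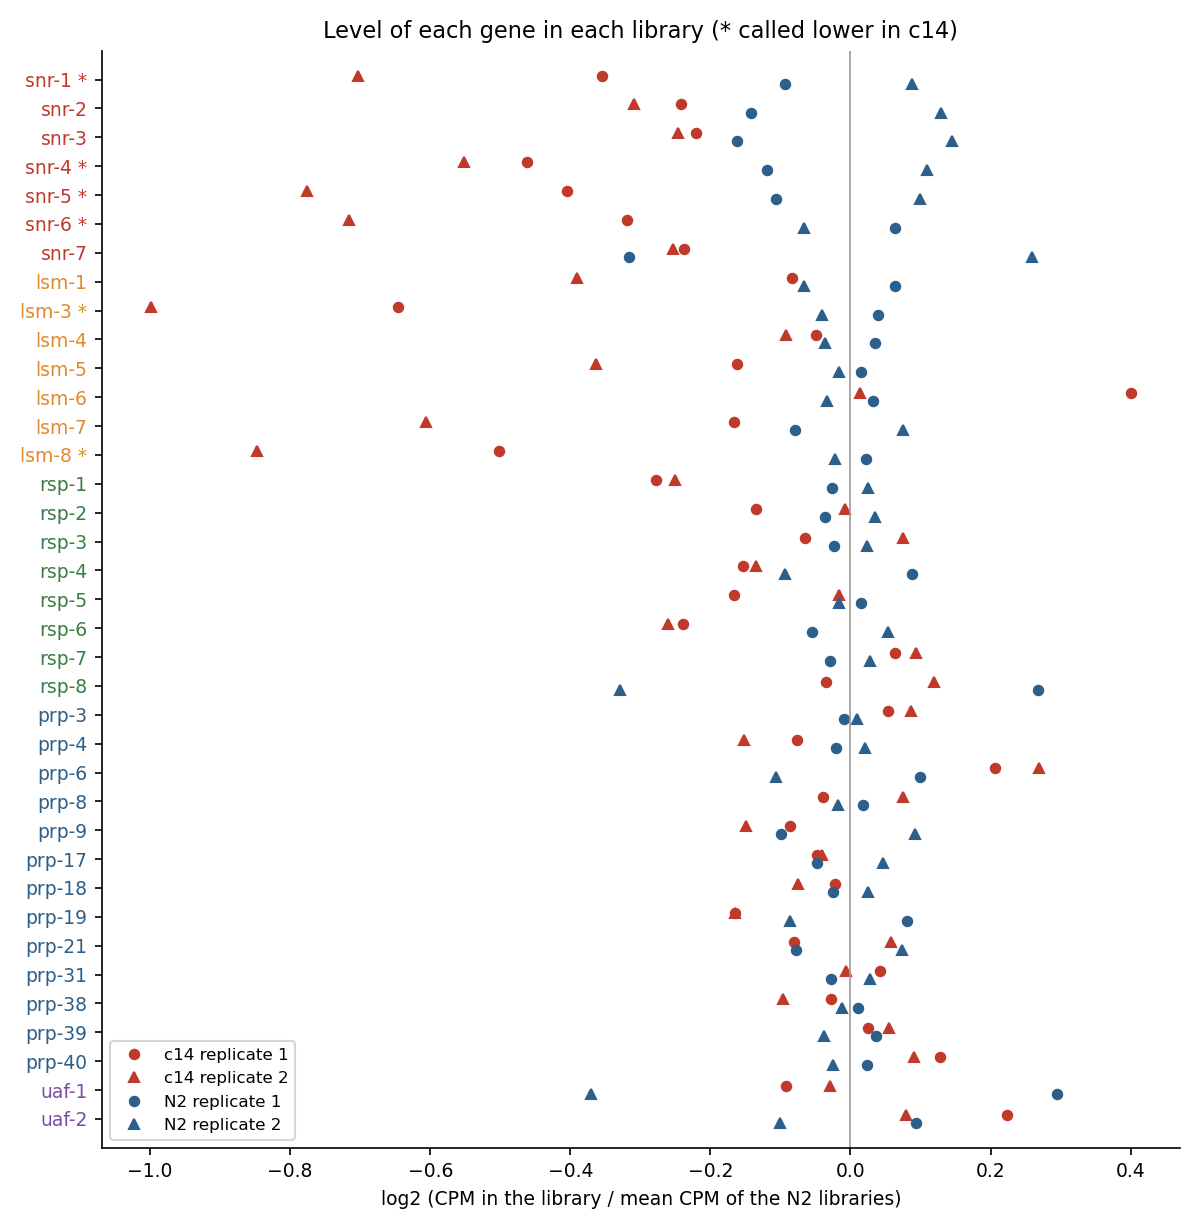
Level of each of the 37 genes in the 4 libraries, as log2 of its CPM over the mean CPM of the N2 libraries (c14 in red above N2 in blue for each gene; circles are replicate 1 and triangles replicate 2; an asterisk marks a gene called lower in c14). For snr-1, snr-4, snr-5, snr-6, lsm-3 and lsm-8 both red points lie left of both blue points, with c14 replicate 2 farther left than c14 replicate 1 in each.

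Levels below are in CPM, counts relative to the TMM-scaled library total, and log2 fold changes are c14 over N2 with the standard error (SE) implied by the test statistic. The Sm genes were the more uniform of the 2 ring families. The gene snr-5 encodes SmF, and its level was 76.8 and 59.4 CPM in c14, against 94.5 and 109 CPM in N2. Both c14 libraries lay below both N2 libraries, and the fall was the largest among the Sm genes (log2 fold change -0.58 ± 0.13, edgeR adjusted p = 0.00826). The neighbouring subunit in the ring, SmE, is encoded by snr-6, which had 82.6 and 62.7 CPM in c14, against 108 and 98.4 CPM in N2. Its groups did not overlap either (-0.50 ± 0.13, edgeR adjusted p = 0.0151), although c14 replicate 1 stood closer to N2 than c14 replicate 2 did.

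For snr-4, which encodes SmD2, the levels were 88.9 and 83.5 CPM in c14, against 113 and 132 CPM in N2. Here the c14 libraries lay close together and the N2 libraries farther apart (-0.51 ± 0.10, edgeR adjusted p = 0.00552). The gene for SmD3, snr-1, had 61.2 and 48.1 CPM in c14, against 73.4 and 83.2 CPM in N2. Again both c14 libraries were the lower ones (-0.52 ± 0.12, edgeR adjusted p = 0.012). In the annotation 96 bases of its exons, 12% of their length, also belong to Y116A8C.43 on the same strand, and 24 bases of snr-6 exons overlap pie-1 on the opposite strand. No source used here says whether counting used the strand, so reads from these stretches cannot be assigned with certainty.

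The other 3 Sm genes did not pass. The gene for SmD1, snr-3, had the smallest difference of the family, with 42.6 and 41.8 CPM in c14, against 44.3 and 54.8 CPM in N2 (-0.23 ± 0.12, edgeR adjusted p = 0.168). In it N2 replicate 1 stood nearer to the c14 libraries than to N2 replicate 2. The SmB gene snr-2 had 89.7 and 85.6 CPM in c14, against 96.1 and 116 CPM in N2 (-0.27 ± 0.11, edgeR adjusted p = 0.0857). The SmG gene snr-7 had 6.52 and 6.45 CPM in c14, against 6.17 and 9.2 CPM in N2, so its groups overlapped (-0.25 ± 0.19, edgeR adjusted p = 0.367). All 7 Sm genes had a negative log2 fold change (snr-7 had 0.09 without N2 replicate 2), with a median of -0.50, where the median of all tested genes was -0.01. The Sm median was -0.50 without N2 replicate 1 and -0.29 without c14 replicate 2. Sm genes, like all tested genes, gave more lower calls in the first of these fits than with all 4 libraries, and fewer in the second (edgeR).

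Per kilobase of exon, the Sm genes covered a wide range even though their proteins share a ring. In N2 the levels of snr-5, snr-6 and snr-4 were 292 ± 29.5, 251 ± 15.9 and 218 ± 24.3 CPM per kilobase (SD, n = 2), the highest of the 37 genes. In c14 they were 196 ± 35.4, 177 ± 34.2 and 153 ± 6.75. Neighbours in this order differed by less than the SD of the higher one in c14, and by more than either SD in N2. At the other end snr-7 had 13.5 ± 0.106 CPM per kilobase in c14 and 16 ± 4.47 in N2, below the 67.4 ± 0.867 in c14 and 79.2 ± 11.9 in N2 of snr-3, the next lowest Sm gene. In N2 only lsm-6, with 13.2 ± 2.5 in c14 and 11.4 ± 0.367 in N2, had a lower level per kilobase than snr-7 among the 37.

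The LSm genes were less uniform. The gene lsm-3, whose product is in both LSm rings, had the largest change of the 37, with 20.9 and 16.4 CPM in c14, against 33.7 and 31.9 CPM in N2. The groups were well apart, with c14 at 57.2% of N2 in the fit (log2 fold change -0.81 ± 0.13, edgeR adjusted p = 0.0017). The gene lsm-8 encodes the subunit that defines the nuclear ring and had 44.6 and 35.1 CPM in c14, against 64.2 and 62.3 CPM in N2. The N2 libraries were close and both c14 libraries lower (-0.66 ± 0.12, edgeR adjusted p = 0.00307). Without c14 replicate 1 the values were -0.99 for lsm-3 and -0.83 for lsm-8.

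The subunit that defines the cytoplasmic ring, LSm1, gave a smaller difference. Its gene lsm-1 had 68.3 and 55.2 CPM in c14, against 75.6 and 69.1 CPM in N2, and did not pass (-0.23 ± 0.12, edgeR adjusted p = 0.18). The c14 replicate 1 level was almost that of N2 replicate 2. Per kilobase lsm-1 was the most abundant LSm gene, with 117 ± 17.5 in c14 and 137 ± 8.71 in N2. The difference between lsm-1 and lsm-8 in response was not tested.

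The other LSm subunits, shared by the rings, ranged from -0.36 to 0.23, and none passed. The gene lsm-7 had 19.1 and 14.1 CPM in c14, against 20.3 and 22.6 CPM in N2 (-0.36 ± 0.15, edgeR adjusted p = 0.0989), and lsm-5 had 27.2 and 23.7 CPM in c14, against 30.8 and 30.2 CPM in N2 (-0.26 ± 0.11, edgeR adjusted p = 0.116). In both genes the c14 libraries were the lower ones, and neither passed the test. Levels of lsm-4 were 18.5 and 18.0 CPM in c14, against 19.6 and 18.7 CPM in N2 (-0.07 ± 0.11), although 40.6% of its exon length overlaps ada-2 on the opposite strand. The only LSm gene with a positive value was lsm-6, with 5.32 and 4.07 CPM in c14, against 4.13 and 3.94 CPM in N2 (0.23 ± 0.18, edgeR adjusted p = 0.377), and its groups overlapped. The median log2 fold change of the 7 LSm genes was -0.26.

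In worms the LSm2 subunit carries the name gut-2, which the symbol rule does not take. It is part of a wider list of spliceosome genes used here to complete the pathway. Its level was 9.06 and 10.4 CPM in c14, against 14.7 and 14 CPM in N2, so it too was lower (-0.57 ± 0.13, edgeR adjusted p = 0.0092). That call was not made with the length trend removed (-0.35).

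Summed over each family, the Sm genes took 448 and 388 CPM in c14, against 535 and 603 CPM in N2, and the LSm genes 204 and 167 CPM in c14, against 248 and 239 CPM in N2. The c14 means were 73.5% and 76.1% of the N2 means. Both sums were lower in both c14 libraries than in either N2 library. So was the sum of all tested genes with exons of up to 1000 bases, which was 84.9% of the N2 mean. The SR genes summed to 675 and 710 CPM in c14, against 731 and 736 CPM in N2, so their groups did not overlap either. The prp genes summed to 3014 and 3100 CPM in c14, against 3040 and 3026 CPM in N2. For the prp genes the groups overlapped and the means differed by less than the c14 spread, with 3057 ± 61.1 CPM in c14 and 3033 ± 10.5 CPM in N2 (SD, n = 2).

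**Figure D2:**
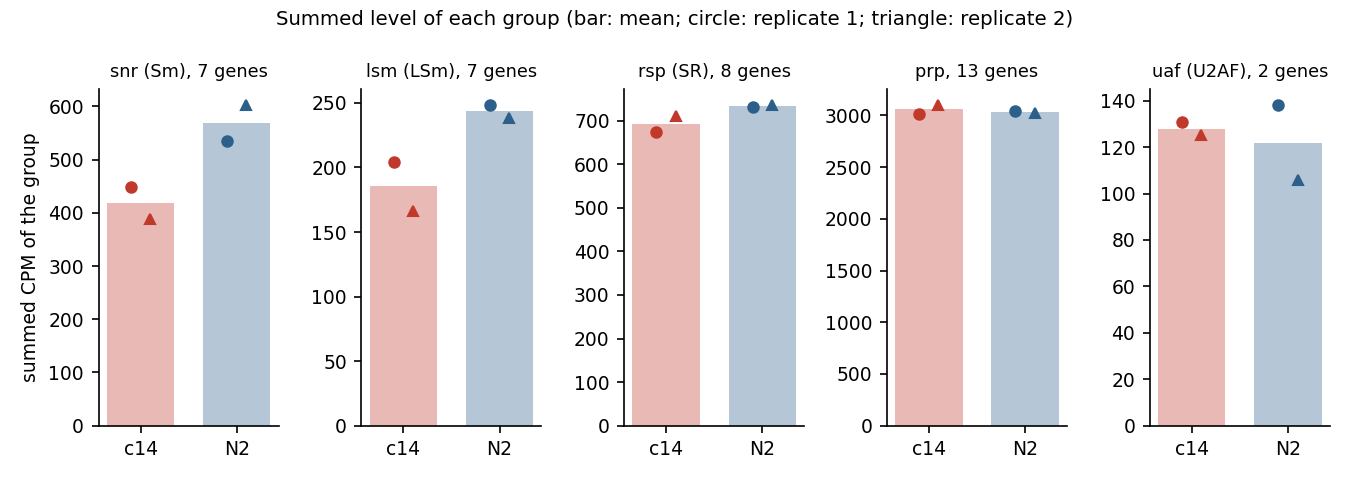
Summed CPM of each gene group in c14 (left, red) and N2 (right, blue), with bars at the mean of 2 libraries, circles for replicate 1 and triangles for replicate 2, and an axis from 0 in each panel. The Sm sums of 448 and 388 CPM in c14 lie below the 535 and 603 CPM of N2, whereas the prp sums of c14 and N2 overlap.

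Among the SR genes, rsp-1 came nearest to the threshold. It had 93.2 and 95.0 CPM in c14, against 111 and 115 CPM in N2, with replicates close in both groups (log2 fold change -0.26 ± 0.09, edgeR adjusted p = 0.0506). It was called with the length trend removed (-0.31, adjusted p = 0.0185) and without N2 replicate 1 (-0.29). The gene rsp-6 had 73.6 and 72.5 CPM in c14, against 83.6 and 90.1 CPM in N2, and did not pass (-0.25 ± 0.09, edgeR adjusted p = 0.0722). The SR-related gene rsp-7 had the largest positive value of the group, with 148 and 151 CPM in c14, against 139 and 144 CPM in N2 (0.08 ± 0.09, edgeR adjusted p = 0.553). In it both c14 libraries were slightly higher than both N2 libraries.

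Per kilobase rsp-2 was the most abundant SR gene, with 98.6 ± 6.11 in c14 and 103 ± 3.65 in N2. Its CPM values were 102 and 111 in c14, against 109 and 114 in N2, and the groups overlapped (-0.07 ± 0.09). The gene rsp-3, the homolog of the human SR protein SF2/ASF, had 86.8 and 95.7 CPM in c14, against 89.3 and 92.3 CPM in N2 (0.01 ± 0.09), with the N2 values inside the c14 range. The Tra2-like gene rsp-8 differed more within N2 than between the strains, with 21.8 and 24.3 CPM in c14, against 26.9 and 17.8 CPM in N2 (0.04 ± 0.17). The 8 SR genes had a median log2 fold change of -0.08.

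None of the 13 prp genes passed (edgeR), with log2 fold changes between -0.16 and 0.24 and a median of -0.01. The most abundant was prp-8, which encodes the large U5 protein at the heart of the spliceosome, with 1150 and 1245 CPM in c14, against 1196 and 1167 CPM in N2 (0.02 ± 0.09, edgeR adjusted p = 0.903). Its N2 values lay inside the c14 range, and with the length trend removed its value was -0.24 (adjusted p = 0.0539). The largest positive value was that of prp-6, a tri-snRNP component, with 208 and 217 CPM in c14, against 193 and 168 CPM in N2 (0.24 ± 0.10, edgeR adjusted p = 0.1). Both its c14 libraries were the higher ones, and it was called only in the fit without N2 replicate 1 (0.34) among the settings run.

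The most negative prp value was that of prp-19, the namesake of a complex that activates the spliceosome, with 135 and 136 CPM in c14, against 161 and 143 CPM in N2 (-0.16 ± 0.09, edgeR adjusted p = 0.228). The c14 libraries were nearly equal and both below N2. The tri-snRNP genes prp-3, prp-4 and prp-31 had log2 fold changes of 0.07, -0.11 and 0.02, with SE of 0.09 each. The genes prp-9 and prp-21, subunits of the SF3a part of the U2 particle, had values of -0.12 ± 0.10 and -0.01 ± 0.10. For prp-17 and prp-18, which act at the second step of splicing, the values were -0.04 and -0.05, and for prp-38, prp-39 and prp-40 they were -0.06, 0.04 and 0.11. Changes of the size measured for lsm-3 (-0.81) lie several SE outside these values.

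Neither subunit of U2AF passed the test, and uaf-1 spread widely in N2. The large subunit gene uaf-1 had 47.0 and 49.1 CPM in c14, against 61.5 and 38.8 CPM in N2, so both c14 values lay between the N2 values (-0.06 ± 0.17, edgeR adjusted p = 0.832). It was called lower without N2 replicate 2 (-0.34). The small subunit gene uaf-2 had 83.9 and 75.9 CPM in c14, against 76.6 and 67.0 CPM in N2 (0.15 ± 0.10, edgeR adjusted p = 0.311), with overlapping groups.

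Transcript length separates the ring genes from the rest. Summed exon length was 276 to 797 bases in the 14 Sm and LSm genes and 1047 to 7407 bases in the 23 others. In these libraries the fold change of all genes ran with length: the median was -0.19 over the 3821 tested genes with exons of up to 1000 bases, of which 24.0% were called lower, and 0.19 over the 736 above 4000 bases, of which 1.09% were. The Sm median of -0.50 was below that of short genes as a whole, and the LSm median of -0.26 close to it. Across the 37 genes, which share libraries and are not independent replicates, Spearman's rho of exon length with the log2 fold change was 0.59, and 0.22 with the trend removed. Family and length therefore cannot be told apart by the raw fold changes.

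With each library's trend on exon length removed, 5 of the 6 calls were still made and the values were smaller. The log2 fold changes were -0.61 for lsm-3, -0.45 for lsm-8, -0.40 for snr-5, -0.35 for snr-1 and -0.28 for snr-4, while snr-6 did not pass (-0.31, adjusted p = 0.0816). The family medians were -0.28 for Sm and -0.12 for LSm, against -0.02 for all tested genes of up to 1000 bases. In that fit 11% of all tested genes were called lower, and 5 of the 14 ring genes were (35.7%), against 14.1% of tested genes of up to 1000 bases. Removing the trend and leaving out c14 replicate 2 together, a setting chosen after seeing the data, ended all 6 calls (edgeR). The values were then -0.50 for lsm-3, with an adjusted p of 0.0552, and -0.33 to -0.18 for the other 5.

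**Figure D3:**
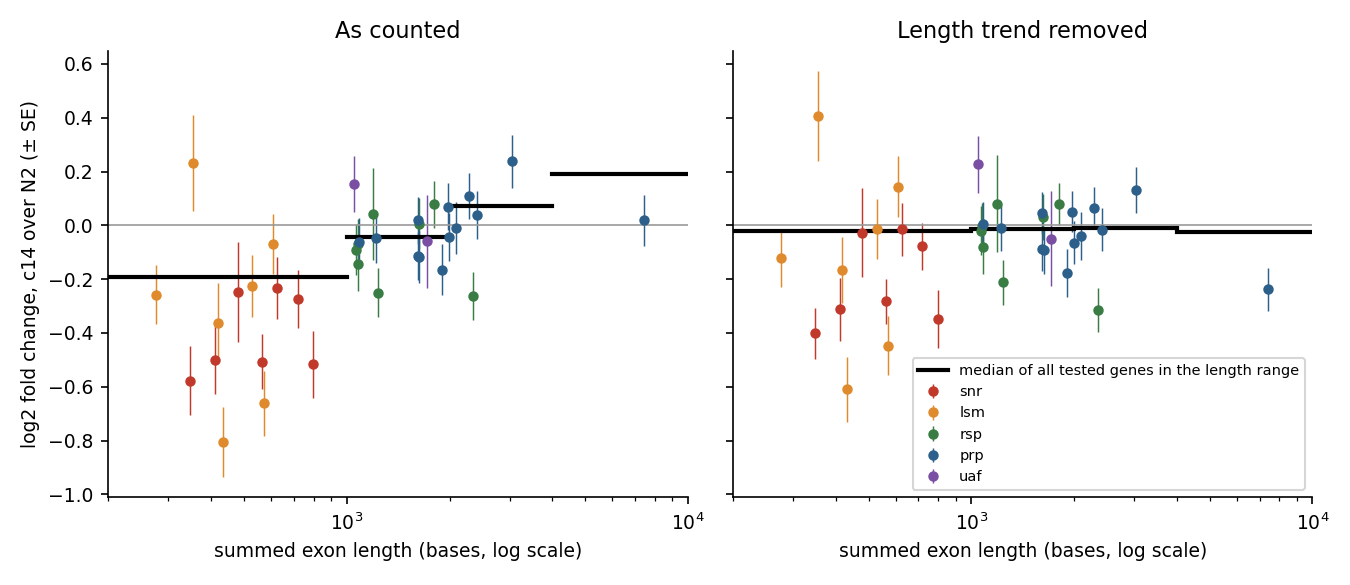
Log2 fold change (c14 over N2, bars are ± SE) of the 37 genes against summed exon length on a log scale, as counted (left) and with each library's length trend removed (right). Black lines are medians of all tested genes in 4 length ranges; as counted they run from -0.19 to 0.19, and with the trend removed they lie near 0, where the lowest points are lsm-3 (-0.61), lsm-8 (-0.45) and snr-5 (-0.40).

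Over all tested genes, the replicates of each strain also differed along exon length. Spearman's rho of length with replicate 2 minus replicate 1 was 0.28 in c14 and -0.22 in N2. For the LSm genes the median log2 difference of c14 replicate 2 minus replicate 1 was -0.35, and that of N2 replicate 2 minus replicate 1 was -0.07. For the Sm genes these medians were -0.09 in c14 and 0.23 in N2, and for all tested genes of up to 1000 bases -0.11 in c14 and 0.11 in N2. The LSm median in N2 thus had the other sign from that of short genes. Taken as single pairs of a c14 minus an N2 library, the Sm median was between -0.65 and -0.26 and the LSm median between -0.45 and -0.15, so all 4 pairs gave a negative median for both families. The same sign in all 4 pairs was also seen for the SR genes (-0.18 to -0.02) and for all tested genes of up to 1000 bases (-0.29 to -0.09). For the prp genes the pairs gave -0.03 to 0.02, and for the U2AF genes -0.17 to 0.30.

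**Figure D4:**
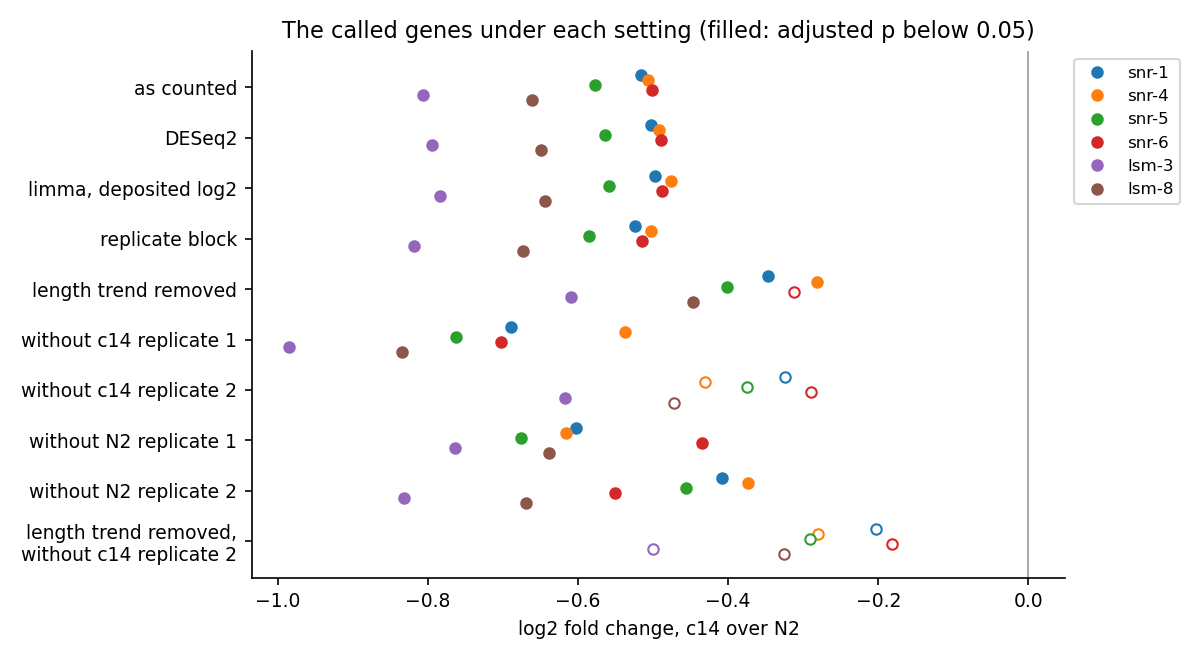
Log2 fold change (c14 over N2) of the 6 called genes under 10 of the settings run, with filled points for an adjusted p below 0.05 and open points otherwise. All points lie left of 0, 5 of the 6 genes lose the call without c14 replicate 2, and all 6 lose it when the length trend is removed as well.

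Of the wider spliceosome list, 74 of 85 symbols matched a row and all 74 were tested, and 4 were lower and 2 higher, with a median log2 fold change of -0.02. Besides gut-2, the lower genes were phf-5, smi-1 and cyn-13. The SF3b subunit gene phf-5 had 31.2 and 29.8 CPM in c14, against 40.6 and 43.9 CPM in N2 (-0.47 ± 0.10, edgeR adjusted p = 0.00726). It was the one of these 4 that was also called with the length trend removed (-0.41). The Gemin2 homolog smi-1, whose protein partners SMN in loading Sm rings onto snRNAs, had 8.13 and 7.17 CPM in c14, against 12.2 and 9.93 CPM in N2 (-0.53 ± 0.15, edgeR adjusted p = 0.025). The cyclophilin gene cyn-13 had a value of -0.32 ± 0.10.

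The higher genes of the list were snrp-40.1, a U5 component, with 22 and 21.2 CPM in c14, against 16.1 and 17.8 CPM in N2 (0.35 ± 0.11, edgeR adjusted p = 0.0445), and the kinase gene prpf-4, with 256 and 225 CPM in c14, against 202 and 189 CPM in N2 (0.30 ± 0.10, edgeR adjusted p = 0.043). With the replicate number as a block neither was called (edgeR, 0 higher). A share of 4 lower genes in 74 (5.41%) is below the 13.3% of all tested genes. The 2 higher genes in 74 are likewise a smaller share than the 13.1% of all tested genes called higher.

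Genes that act with the cytoplasmic LSm ring in mRNA decay were given beside lsm-1. Of 8 such genes 2 were lower, where 13.3% of all tested genes were: the helicase gene cgh-1 with 806 and 837 CPM in c14, against 1317 and 1228 CPM in N2 (-0.63 ± 0.09, edgeR adjusted p = 0.00112), and car-1 (-0.32 ± 0.09, edgeR adjusted p = 0.0287). The decapping genes dcap-1 and dcap-2 had values of -0.05 ± 0.12 and 0.13 ± 0.10, and the scaffold gene patr-1 of 0.07 ± 0.09.

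Markers of the main tissues of a whole worm were detected, and some moved with the strain. Of 12 germline markers none was called (edgeR; median log2 fold change -0.16), and their summed level was 2681 and 2786 CPM in c14, against 3204 and 2804 CPM in N2. Of 10 oocyte markers 3 were lower, with 6640 and 6939 CPM in c14, against 8410 and 7726 CPM in N2, and of 14 sperm rows 12 were higher, with 505 and 464 CPM in c14, against 320 and 337 CPM in N2. Lower and higher calls were 1 and 3 of 9 for intestine, 1 and 4 of 10 for muscle, and 1 and 1 of 10 each for hypodermis and neurons. Of all tested genes 13.3% were lower and 13.1% higher, so the counts for hypodermis and neurons are near those shares. With the length trend removed, the germline list had 3 lower and 0 higher, the oocyte list 6 lower and 1 higher, and the sperm list 0 lower and 14 higher. In that fit lower and higher calls were 1 and 3 for intestine, 1 and 4 for muscle, 0 and 2 for hypodermis and 1 and 0 for neurons. Of all tested genes 11% were then lower and 12.9% higher. The hypodermis and neuron counts, and the lower counts for intestine and muscle, are near those shares. No marker was at 0 in all libraries. Their part in the fall of the ring genes was not tested.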

How the data were processed

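Libraries of total RNA from whole young adults were prepared with ScriptSeq v2, per the labels' protocols. Raw gene counts and log2 values were deposited by the authors in separate tables. These log2 values match the log2 of counts brought to a common total, with 8 added (largest gap 0.000508). The aligner, counter, build, annotation and strand use are not stated in the sources. Library totals were 33009708 and 24717311 counts in c14 and 29773406 and 31311497 in N2. For well-counted genes the number of libraries therefore limits the precision more than counting does. Counts were as low as 101 for lsm-6 and 160 for snr-7 in c14 replicate 2, where counting error also weighs. Replicates differed beyond counting error, with a chi-square over its degrees of freedom of 7.37 in c14 and 24.4 in N2. Symbols came from a name table by gene ID (18778 of 20182 rows), and positions, overlaps and merged exon lengths from the Ensembl annotation of WBcel235 (96.7% of rows).

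Counts of all 4 libraries were tested by strain with edgeR 4.0.16 (R 4.3.3): default expression filter, TMM scaling (factors 0.985 to 1.01), the quasi-likelihood test, and Benjamini-Hochberg adjustment over all genes tested. The SE is the absolute log2 fold change over the square root of F. Alternatives were DESeq2 1.42.0, limma 3.58.1 on the deposited log2 values, other scalings and filters, each library left out, a replicate block, and an offset for each library's lowess trend (span 0.3) on log2 exon length. On counts simulated from this comparison (13797 genes) edgeR recovered 90.8% of 2-fold and 54% of 1.5-fold changes, with 1.38% false calls. That simulation had a common dispersion for all genes and no length trend, unlike these libraries, so its rates may not hold here. The members and lists were chosen with earlier results of these data known. Genes named with every library's value are the called members, the extremes of each prefix group and its most abundant member per kilobase. Other members were named to complete a ring or group, after their values were seen. Of the wider list the 3 largest lower calls and both higher calls were named, and cyn-13 was added. No sequences were used here.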

Additional observations from a re-analysis of the deposited data

How the results depend on the processing

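The 6 called members kept a negative log2 fold change under all 13 settings, and all 6 calls were kept under DESeq2 size factors, library size alone, the DESeq2 test, limma, both other filters, the replicate block, and without c14 replicate 1 or either N2 replicate. Leaving out 1 library gave 1 to 12 members lower and 0 to 2 higher. By group, lower members ranged over 0 to 7 (Sm), 1 to 3 (LSm), 0 to 2 (SR) and 0 to 1 (U2AF), and higher ones over 0 to 1 (SR and prp). Medians ranged over -0.54 to -0.29 (Sm), -0.38 to -0.13 (LSm), -0.14 to 0.0013 (SR), -0.050 to 0.016 (prp) and -0.13 to 0.28 (U2AF). The wider spliceosome list had 1 to 8 lower and 0 to 3 higher genes, and all tested genes gave 447 to 2307 lower and 961 to 2042 higher. With the length trend removed the medians were -0.28 (Sm), -0.12 (LSm) and -0.011 (SR), 1 SR gene (rsp-1) was lower, and the wider list had 2 lower and 1 higher. With the trend removed and without c14 replicate 2, no member was lower (0 Sm, 0 LSm), the medians were -0.18 (Sm) and -0.019 (LSm), the wider list had 0 lower and 0 higher, and 552 of all genes were lower. The prp median was 0.015 with library size alone, 0.0165 with limma, 0.014 without a filter and 0.023 with a mean of at least 50 counts, where the wider list had 5, 5, 5 and 4 higher genes. DESeq2 gave 2 lower and 1 higher in that list. The cause of these shifts was not tested. Deviations of same-numbered libraries correlated at -0.04 across genes, so the numbers are not shown to pair the libraries; the replicate block changed no call of a member and left 0 higher genes in the wider list.

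Among members that were not called, 32 values under the settings had the other sign, and none of these passed the threshold. With the length trend removed these were lsm-4 (0.14), prp-8 (-0.24), prp-38 (0.0034) and prp-39 (-0.016). With the trend removed and without c14 replicate 2 they were lsm-1 (0.087), lsm-4 (0.13), rsp-3 (-0.035), prp-8 (-0.25), prp-18 (0.019), prp-38 (0.037) and prp-39 (-0.0080). For prp-21 the value was 0.0025 with DESeq2 size factors, 0.015 with library size alone, 0.0033 with DESeq2, 0.0165 with limma, 0.023 with the filter at a mean of 50 counts and 0.014 without a filter. For uaf-1 it was 0.0025 with limma. With 1 library left out, sign changes gave ranges of -0.50 to 0.085 (snr-7), -0.11 to 0.0059 (rsp-2), -0.035 to 0.089 (rsp-3), -0.21 to 0.37 (rsp-8), -0.0089 to 0.089 (prp-8), -0.091 to 0.018 (prp-17), -0.073 to 0.0075 (prp-18), -0.084 to 0.081 (prp-21), -0.0097 to 0.073 (prp-31), -0.084 to 0.0026 (prp-38) and -0.34 to 0.31 (uaf-1).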

Other observations

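Many worm genes lie close behind one another on a strand. Of the 37 genes, 18 had a protein-coding neighbour on the same strand within 500 bases, in 23 pairs of which 21 had a tested neighbour. In 4 of the 21 the neighbour was lower in c14 and in 0 it was higher (edgeR), where 13.3% of all tested genes were lower. Called members had 4 of these neighbours, of which 1 was lower and 1 was not tested. The gene mif-2 starts 48 bases behind snr-4, and its log2 fold change of -0.50 ± 0.15 stood beside -0.51 for snr-4. Behind snr-2 (-0.27, not called), ola-1 was lower (-0.36 ± 0.12). By contrast lsm-8 lies between sqd-1 and seu-1, at gaps of 103 and 166 bases, and these had values of -0.10 ± 0.09 and -0.11 ± 0.10 beside -0.66 for lsm-8. The genes trpp-3 and cyn-13 were lower (-0.55 and -0.32) behind prp-40 and uaf-2, which had 0.11 and 0.15. Differences within these pairs were not tested.

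Members also flanked one another in divergent pairs on chromosome II. The gene snr-3 lies 403 bases from rsp-5, with log2 fold changes of -0.23 and -0.09, and rsp-2 lies 406 bases from rsp-1, with -0.07 and -0.26.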
